A study of Mus musculus with 18 samples.

Results

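The BMP, TGF-beta, SMAD and ID genes were followed through 18 mouse melanomas in which an NRAS oncogene was left on, was switched off, or stayed on while its effector MEK was inhibited. The set held 46 listed genes, taken by name from the ligands to the ID genes, and a gene was read through every probe set whose single platform symbol was that gene. 45 of the 46 genes had such a probe set, with 102 probe sets in all, out of 18193 genes and 34945 probe sets with 1 symbol. 43 of the 45 passed the filter on dim signals. Bmp5 and Nog did not, and Bmp3 was not analysed here.

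The tumours were allografts of 1 mouse melanoma cell line, iNRAS-475, injected into the skin of nude hosts, a strain without mature T cells. All hosts drank water with 2 mg/ml doxycycline, which keeps the oncogene on, until tumours reached 200 to 500 mm3 at 6 weeks. The vehicle group stayed on doxycycline and received vehicle, the MEKi group received 100 mg/kg of the MEK inhibitor AZD6244 (selumetinib) for 4 days, and in the NRAS-off group doxycycline was withdrawn for 4 days. Each group held 6 distinct tumours, each read on 1 Affymetrix array, so the p-values measure the spread between tumours of 1 cell line. Since the drug was withdrawn in the NRAS-off group alone, its own effects and those of the oncogene cannot be told apart there. The labels do not name the promoter that drives the oncogene.

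Ligands of this family bind pairs of type I and type II receptor kinases, which phosphorylate the receptor SMADs. BMP receptors act mainly on SMAD1, SMAD5 and SMAD9, and TGF-beta and activin receptors on SMAD2 and SMAD3. Both classes join SMAD4 and enter the nucleus, where they induce the inhibitory SMADs, SMAD6 and SMAD7, and, below BMP receptors, the ID genes. ID proteins bind basic helix-loop-helix factors and keep them off DNA, and in the melanocyte lineage TGF-beta and BMP signals bear on growth, pigment and differentiation.

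As a check of the labels, the mouse Nras probe set read 2184, 2291 and 2524 intensity units in vehicle tumours (lowest, median and highest of 6, the order used throughout). It read 1853, 1914 and 2009 in NRAS-off and 1858, 1953 and 2229 in MEKi tumours, and whether it reads the inducible oncogene is not given in the labels. Dusp6, an ERK phosphatase induced by ERK itself, read 7412, 8337 and 9135 in vehicle, 786, 1117 and 1667 in NRAS-off and 1941, 2534 and 2807 in MEKi tumours, with no overlap between groups. Of the melanocytic markers, Sox10, a melanocyte and neural crest factor, averaged 9200 in vehicle tumours, while Tyr, Tyrp1 and Gpr143 lay below the filter and Mlana averaged 22.9, so the pigment markers of the labelled melanoma were mostly near the lower end of the arrays.

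Of the 43 genes, 13 (30.2%) rose and 18 (41.9%) fell in NRAS-off against vehicle tumours at a limma adjusted p under 0.05, when 31.8% of all 15005 genes tested rose and 27.5% fell. Against vehicle, 10 (23.3%) rose and 15 (34.9%) fell in MEKi tumours, with 24.3% and 20.9% of all genes. In NRAS-off against MEKi tumours 11 (25.6%) rose and 13 (30.2%) fell, with 24.3% and 22.7% of all genes. The shares that rose were near those of all genes, and the shares that fell were above them. The median log2 change of the 43 genes was -0.06, -0.05 and -0.04 in these comparisons, beside 0.00, 0.01 and -0.01 over all genes. Changes are differences of mean log2(intensity + 16) with the SE of the fit, and the first pair of comparisons shares the vehicle tumours.

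**Figure D1:**
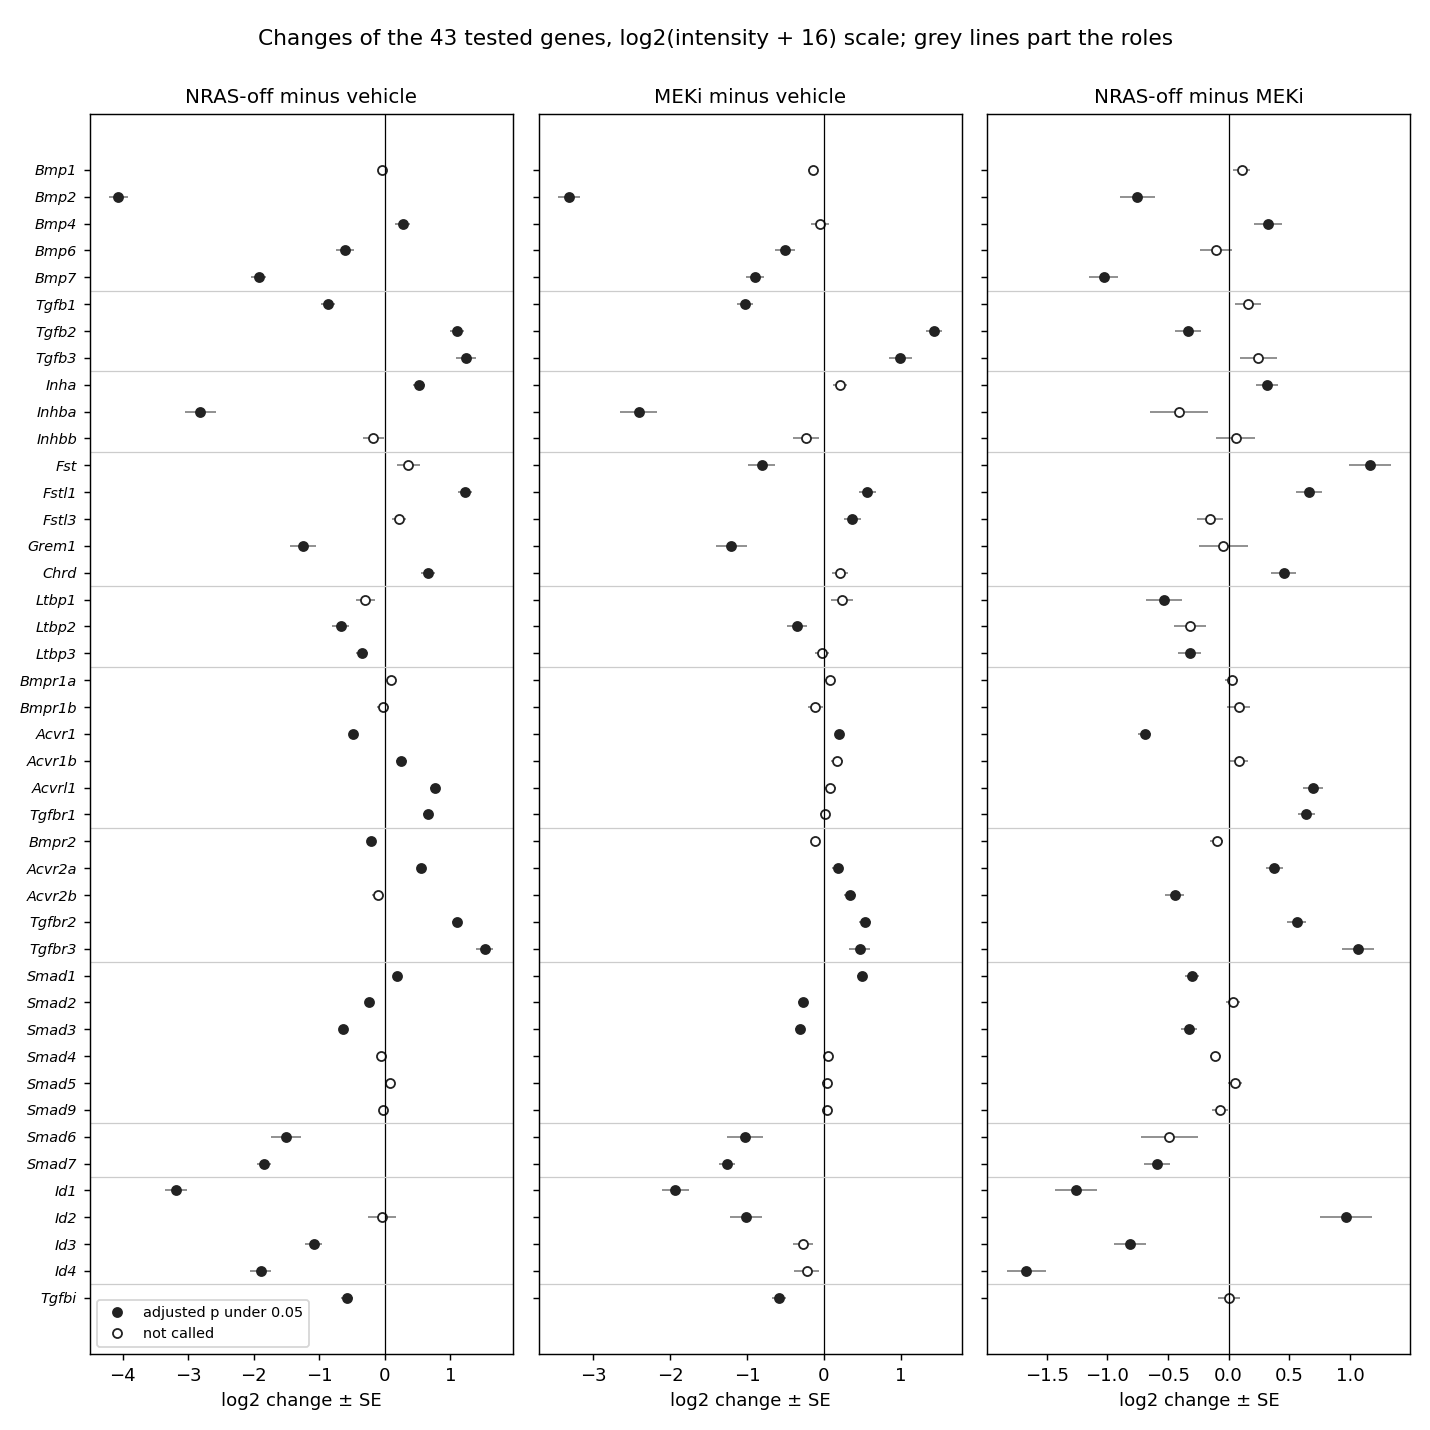
Log2 change ± SE (x axis, log2(intensity + 16) scale) of the 43 tested genes (y axis, grouped by role) in 3 panels, NRAS-off minus vehicle, MEKi minus vehicle and NRAS-off minus MEKi, each panel with its own x range. Filled points passed a limma adjusted p under 0.05. Bmp2, at -4.07 and -3.31 against vehicle, lies farthest to the left in the first and second panels.

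Intensities of all 12 tumours of a comparison separated without overlap for 24 of the 43 genes (55.8%) in NRAS-off against vehicle, 10 above and 14 below, when 39.2% of all genes did so. In MEKi against vehicle 15 genes (34.9%) separated, 5 above and 10 below, beside 25.5% of all genes. In NRAS-off against MEKi 18 (41.9%) separated, 7 above and 11 below, beside 28.3% of all genes.

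All 4 ID genes differed between the treatments, when 24.3% of all genes rose and 22.7% fell in NRAS-off against MEKi tumours. Id1, Id3 and Id4 were lower in NRAS-off than in MEKi tumours, and Id2 was higher. The windows from 250 bases before to 50 bases after the annotated start are shown for the ID genes for which RefSeq (GRCm38.p6) gave one, and for Smad6, the listed gene whose window held the palindromic SMAD-binding sequence. They were chosen after the values were seen, and other genes that fell had windows too. They are printed 5′ to 3′ on the gene's strand: Id2 at chr12:25096043-25096342 on the minus strand, Id3 at chr4:136143572-136143871 on the plus strand, Id4 at chr13:48260866-48261165 on the plus strand and Smad6 at chr9:64022010-64022309 on the minus strand. Capitals mark GGCGCC, a GC-rich element that SMADs can bind, and GTCTAGAC, the palindromic SMAD-binding sequence.
Id2: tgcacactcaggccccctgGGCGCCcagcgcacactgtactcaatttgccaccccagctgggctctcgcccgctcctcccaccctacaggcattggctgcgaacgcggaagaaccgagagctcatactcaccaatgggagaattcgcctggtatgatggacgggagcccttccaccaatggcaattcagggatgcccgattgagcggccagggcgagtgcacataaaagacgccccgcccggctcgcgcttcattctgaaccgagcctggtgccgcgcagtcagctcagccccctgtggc
Id3: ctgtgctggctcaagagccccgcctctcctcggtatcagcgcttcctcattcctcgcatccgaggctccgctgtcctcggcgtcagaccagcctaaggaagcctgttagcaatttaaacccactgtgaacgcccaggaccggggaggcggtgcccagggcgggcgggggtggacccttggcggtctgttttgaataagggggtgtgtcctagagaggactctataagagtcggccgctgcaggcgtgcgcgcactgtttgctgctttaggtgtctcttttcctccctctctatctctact
Id4: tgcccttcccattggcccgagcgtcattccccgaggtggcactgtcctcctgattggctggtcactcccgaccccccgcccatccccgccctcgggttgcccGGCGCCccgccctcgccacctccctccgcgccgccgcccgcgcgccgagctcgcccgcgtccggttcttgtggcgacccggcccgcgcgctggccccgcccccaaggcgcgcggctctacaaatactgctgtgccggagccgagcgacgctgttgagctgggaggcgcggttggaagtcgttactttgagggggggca
Smad6: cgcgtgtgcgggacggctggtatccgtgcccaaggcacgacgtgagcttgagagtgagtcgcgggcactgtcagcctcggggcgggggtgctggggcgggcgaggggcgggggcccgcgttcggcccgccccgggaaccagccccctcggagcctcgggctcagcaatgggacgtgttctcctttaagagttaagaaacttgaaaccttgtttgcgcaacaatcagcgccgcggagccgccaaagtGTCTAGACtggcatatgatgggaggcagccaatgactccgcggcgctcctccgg
Searched on both strands, GGCGCC lay 231 bases before the start of Id2 and 148 bases before that of Id4, and Id3 had no match in this window. GTCTAGAC began 4 bases before the start of Smad6. Of 32851 windows of the same length, 11.9% held GGCGCC and 0.213% held GTCTAGAC. Of the 33 listed genes with a window, 1, Smad6, held GTCTAGAC, and 11 held GGCGCC: Id2, Id4, Grem1, Tgfbi and Bmpr2, which fell in at least 1 treatment, Tgfbr1, Chrd and Acvr1b, which rose with NRAS off, and Smad5, Smad9 and Bmpr1a, which passed in no comparison. The short SMAD box GTCT, which GTCTAGAC holds on both strands, was in 30 of the 33 and in 88% of all windows. A listed gene was counted if any of its windows matched, and the 33 genes had 39 windows. The shares over all are of single windows, so the counts and shares differ in unit. A match describes letters and no binding was measured.

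Id1, the ID gene most often used as a readout of BMP receptor activity, read 1889.8, 2988 and 3388 in vehicle, 192, 289 and 416 in NRAS-off and 568, 657 and 951 in MEKi tumours. All vehicle tumours were highest, all NRAS-off tumours lowest, and no groups overlapped. Id1 fell by 3.19 ± 0.18 with NRAS off (9.11-fold on the log2(intensity + 16) scale, limma adjusted p = 2.4e-11) and by 1.93 ± 0.18 with MEKi (3.82-fold, limma adjusted p = 5.8e-08). The NRAS-off level was also below the MEKi level (log2 change -1.26 ± 0.18, limma adjusted p = 8.2e-06).

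Id4 read 2677, 4158 and 6938 in vehicle tumours, 1089.8, 1130.3 and 1231 in NRAS-off and 2866, 3821 and 4338 in MEKi tumours. The NRAS-off tumours lay in a narrow band below every other tumour, and MEKi overlapped vehicle. It fell by 1.89 ± 0.16 with NRAS off (limma adjusted p = 8.2e-09), changed by -0.22 ± 0.16 with MEKi without passing the test (limma adjusted p = 0.279), and differed between the treatments by -1.67 ± 0.16 (limma adjusted p = 8.2e-08). All 3 tested probe sets of Id4 fell with NRAS off, with log2 changes from -1.89 to -1.57, and none passed with MEKi. Without vehicle replicate 6, the lowest vehicle tumour for Id4, the MEKi change was -0.36 and passed (limma adjusted p = 0.0379).

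Id3 read 2097, 3186 and 3926 in vehicle, 1290.0, 1430.0 and 1607 in NRAS-off and 2017, 2531 and 3256 in MEKi tumours. The NRAS-off tumours were again below all others, and MEKi and vehicle overlapped. Id3 fell by 1.09 ± 0.13 with NRAS off (limma adjusted p = 7.2e-07), the MEKi change was -0.27 ± 0.13 (limma adjusted p = 0.098), and the treatments differed by -0.81 ± 0.13 (limma adjusted p = 3.7e-05). The MEKi change of Id3 passed without vehicle replicate 6 (-0.38) and without MEKi replicate 1 (-0.34).

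Id2 went another way. It read 1106, 1242 and 1904 in vehicle, 919, 1332 and 1826 in NRAS-off and 357, 716 and 925 in MEKi tumours, so that all MEKi tumours lay below all vehicle tumours and NRAS-off spanned the vehicle range. The NRAS-off change was -0.05 ± 0.21 (limma adjusted p = 0.864), Id2 fell by 1.01 ± 0.21 with MEKi (limma adjusted p = 0.00065), and it was 0.97 ± 0.21 higher with NRAS off than with MEKi (limma adjusted p = 0.00088). The highest MEKi tumour, at 925, overlapped the lowest NRAS-off tumour, at 919. All 3 tested probe sets of Id2 fell with MEKi, with log2 changes from -1.18 to -0.87, and 1 of them also fell with NRAS off (-0.35).

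**Figure D2:**
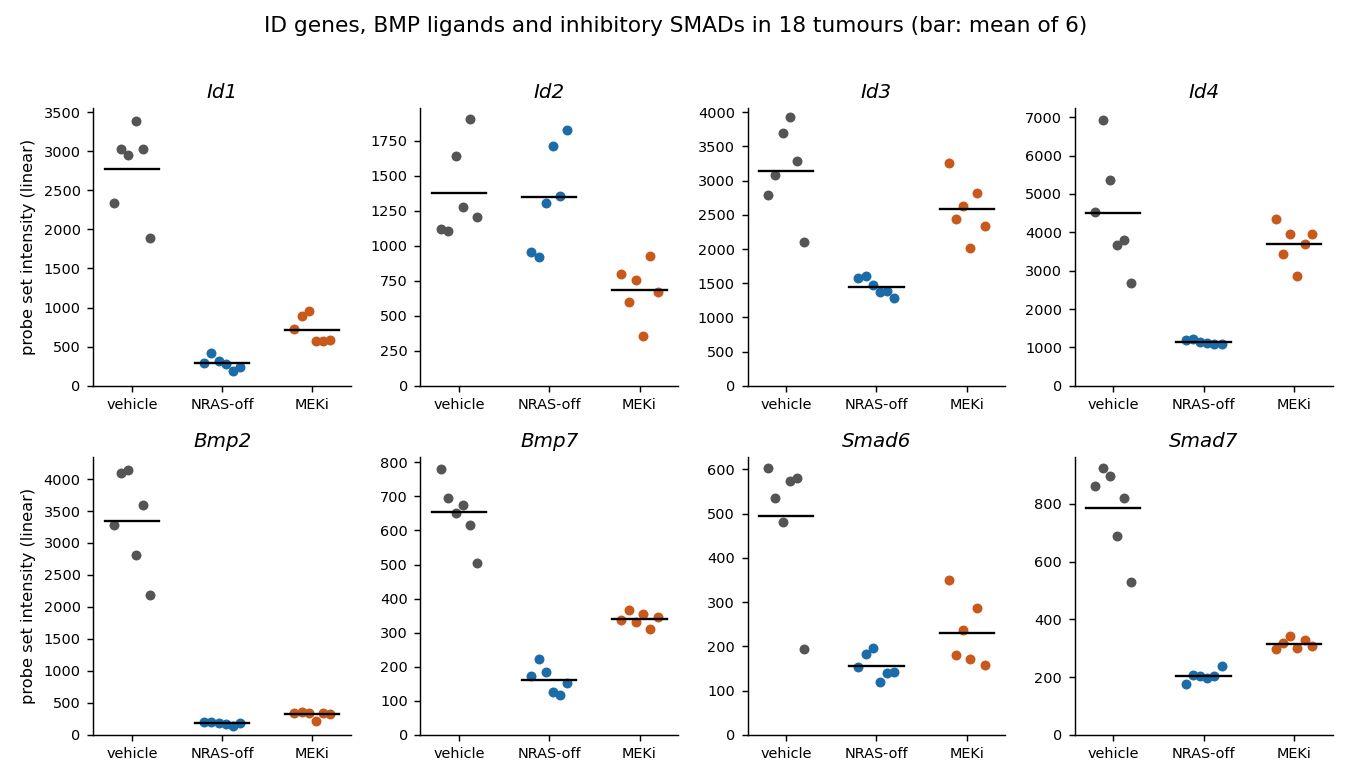
Probe set intensity (y axis, linear, from 0) of Id1 to Id4, Bmp2, Bmp7, Smad6 and Smad7 in the 6 tumours of each group (x axis), 1 point per tumour and a bar at the group mean. Id4 is low in the NRAS-off tumours alone (1089.8 to 1231), Id2 is lowest in the MEKi tumours (357 to 925), and 1 vehicle tumour of Smad6 sits at 195.

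Both inhibitory SMADs fell in both treatments, when 27.5% of all genes fell with NRAS off and 20.9% with MEKi. Smad7, which blocks receptors of the TGF-beta and BMP classes, read 528, 841 and 924 in vehicle, 176, 205 and 237 in NRAS-off and 296, 312 and 341 in MEKi tumours, with no overlap between any groups. It fell by 1.84 ± 0.11 with NRAS off and by 1.26 ± 0.11 with MEKi, and differed between the treatments by -0.59 ± 0.11 (limma adjusted p = 4.1e-11, 2.1e-08 and 0.00013). Smad6, which acts mainly on BMP signals, read 195, 555 and 603 in vehicle, 118, 147 and 196 in NRAS-off and 158, 209 and 349.7 in MEKi tumours. Vehicle replicate 6, at 195, stood below the other vehicle tumours, the lowest of which was at 481, and it alone overlapped the treated groups. Smad6 fell by 1.51 ± 0.23 and 1.02 ± 0.23 (limma adjusted p = 1.7e-05 and 0.0014), and by 1.75 and 1.26 without that tumour. The difference between treatments, -0.49 ± 0.23, did not pass (limma adjusted p = 0.0971), and passed at the same value without vehicle replicate 6 (limma adjusted p = 0.0171), with a replicate block and with only the 2 groups compared.

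Among the ligands, the BMPs that moved against vehicle fell, apart from Bmp4. Bmp2, a ligand of the BMP receptors, read 2193, 3435 and 4139 in vehicle, 141, 188 and 204 in NRAS-off and 216, 338 and 357 in MEKi tumours, without overlap between any groups. It fell by 4.07 ± 0.14 with NRAS off (16.8-fold, limma adjusted p = 8.4e-14) and by 3.31 ± 0.14 with MEKi (9.94-fold, limma adjusted p = 9.0e-12), the largest falls among the 43 genes in either comparison, and it was lower with NRAS off than with MEKi (-0.75 ± 0.14, limma adjusted p = 0.00025). Bmp7 read 505, 664 and 781 in vehicle, 117, 162 and 223 in NRAS-off and 312, 342 and 365 in MEKi tumours. Its groups also did not overlap. Bmp7 fell by 1.93 ± 0.12 and 0.90 ± 0.12, with -1.03 ± 0.12 between the treatments (limma adjusted p = 1.2e-10, 6.4e-06 and 8.8e-07), and all 3 of its probe sets passed in the same direction in each comparison.

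The other BMP ligands were dimmer or moved less. Bmp6, a ligand also known for its part in iron control, read 92.8, 104 and 177 in vehicle, 51.3, 74.4 and 76.5 in NRAS-off and 62.0, 71.8 and 106 in MEKi tumours, and fell by 0.61 ± 0.13 and 0.50 ± 0.13 (limma adjusted p = 0.00063 and 0.0045). Only the MEKi group overlapped vehicle. Bmp4 lay near the filter, at 19.9 to 29.8 in vehicle, 21.9 to 48.4 in NRAS-off and 17.4 to 33.4 in MEKi tumours, and the groups overlapped. It rose by 0.27 ± 0.11 with NRAS off (limma adjusted p = 0.0457), a call that was lost in 15 of 29 alternatives, 11 of which left out 1 tumour (0.19 to 0.29). Its rise over MEKi, 0.32 ± 0.11 (limma adjusted p = 0.0251), was lost without any 1 of 5 tumours, MEKi replicates 1, 2 and 5 and NRAS-off replicates 1 and 4 (0.24 to 0.30). Bmp1, a procollagen protease and no true BMP, passed in no comparison (-0.04, -0.15 and 0.11). Other probe sets of Bmp1 gave falls to -0.33 with NRAS off and -0.52 with MEKi where the most variable probe set stood for the gene. The untested Bmp5, a BMP ligand, read 17.6 to 32.0 over all tumours, and Nog, which encodes the BMP antagonist noggin, read 23.0 to 34.5 in vehicle tumours and reached 26.2 in treated ones.

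The 3 TGF-beta ligands did not move together: Tgfb1 fell while Tgfb2 and Tgfb3 rose in both treatments. Tgfb1 read 386, 461 and 538 in vehicle, 207, 222 and 301 in NRAS-off and 165, 219 and 250.3 in MEKi tumours, and every treated tumour was below every vehicle tumour. Tgfb1 fell by 0.87 ± 0.11 with NRAS off and by 1.02 ± 0.11 with MEKi (limma adjusted p = 1.1e-06 and 3.3e-07), and the treatments differed by 0.16 ± 0.11 (limma adjusted p = 0.246). Tgfb2 read 555, 705 and 774 in vehicle, 1252, 1527 and 1585 in NRAS-off and 1466, 1822 and 2375 in MEKi tumours, all treated tumours being higher than all vehicle tumours. It rose by 1.10 ± 0.11 and 1.43 ± 0.11 (limma adjusted p = 4.7e-08 and 4.3e-09), and the rise was smaller with NRAS off than with MEKi (-0.34 ± 0.11, limma adjusted p = 0.0138), although the treated groups overlapped. Tgfb3 read 442, 738 and 786, then 1332, 1631 and 2018, then 1154, 1253 and 1765 in the same order of groups, again without overlap with vehicle. It rose by 1.24 ± 0.15 and 0.99 ± 0.15 (limma adjusted p = 8.2e-07 and 2.5e-05), with 0.25 ± 0.15 between treatments (limma adjusted p = 0.19).

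Of the inhibin and activin subunits, Inhba, the subunit of activin A, fell in both treatments. It read 2374, 3915 and 6289 in vehicle, 313, 582 and 905 in NRAS-off and 618, 681 and 857 in MEKi tumours, with all treated tumours below all vehicle tumours. Inhba fell by 2.81 ± 0.24 (7.03-fold, limma adjusted p = 9.2e-09) with NRAS off and by 2.40 ± 0.24 (5.29-fold, limma adjusted p = 2.0e-07) with MEKi. The difference between treatments, -0.41 ± 0.24, did not pass (limma adjusted p = 0.176), and passed at -0.57 without NRAS-off replicate 2. Inha, the alpha subunit that makes inhibins, rose with NRAS off by 0.52 ± 0.09 and over MEKi by 0.31 ± 0.09 (limma adjusted p = 5.9e-05 and 0.0076), and its MEKi change of 0.21 ± 0.09 (limma adjusted p = 0.0694) passed without vehicle replicate 4 or MEKi replicate 2 or 4 (0.24 to 0.27). Inhbb, the activin B subunit, passed in no comparison (-0.18, -0.23 and 0.06).

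**Figure D3:**
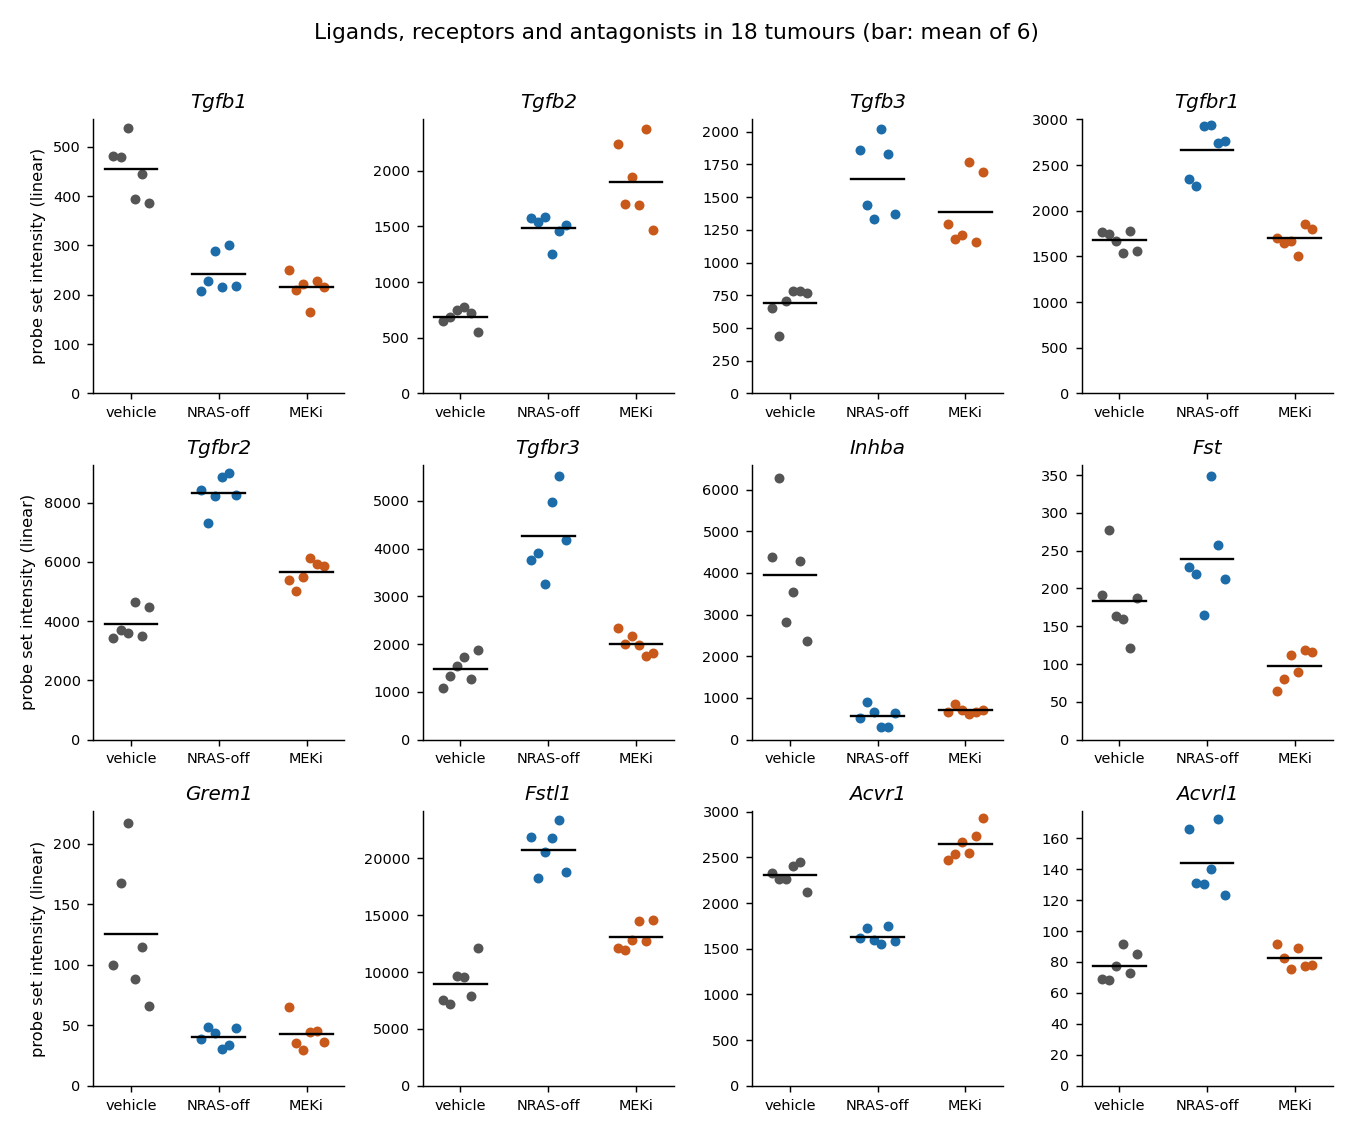
Probe set intensity (y axis, linear, from 0) of 12 ligands, receptors and antagonists in the 6 tumours of each group (x axis), with a bar at the group mean. Tgfb1 and Inhba lie lower, and Tgfb2, Tgfb3 and Tgfbr2 higher, in all treated than in all vehicle tumours, and Tgfbr1 is raised in the NRAS-off tumours (2273 to 2934) and not in the MEKi tumours (1507 to 1855).

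Fst and Grem1, both secreted antagonists, behaved differently from each other. Follistatin, the product of Fst, binds activins, and its gene read 122, 175 and 278 in vehicle, 165, 224 and 349 in NRAS-off and 64.4, 101 and 118 in MEKi tumours. All MEKi tumours lay below all others, and NRAS-off overlapped vehicle. Fst changed by 0.36 ± 0.18 with NRAS off (limma adjusted p = 0.0878), fell by 0.81 ± 0.18 with MEKi (limma adjusted p = 0.0009) and was 1.17 ± 0.18 higher with NRAS off than with MEKi (limma adjusted p = 1.9e-05). The NRAS-off change passed without vehicle replicate 2 (0.48) and without NRAS-off replicate 3 (0.45). Grem1, which encodes the BMP antagonist gremlin, read 66.3, 107 and 217 in vehicle, 30.6, 41.1 and 49.0 in NRAS-off and 29.7, 40.4 and 65.5 in MEKi tumours, with all treated tumours below all vehicle tumours. It fell by 1.25 ± 0.20 and by 1.20 ± 0.20 (limma adjusted p = 2.4e-05 and 6.8e-05), and the treatments differed by -0.04 ± 0.20 (limma adjusted p = 0.881).

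Fstl1, a secreted follistatin-like glycoprotein of mesenchymal cells, read 7176, 8722 and 12143 in vehicle, 18228, 21148 and 23317 in NRAS-off and 11974, 12755 and 14604 in MEKi tumours. The NRAS-off tumours stood above all others, and 1 vehicle tumour reached the MEKi range. Fstl1 rose by 1.22 ± 0.11 and 0.56 ± 0.11, and was 0.66 ± 0.11 higher with NRAS off (limma adjusted p = 1.3e-08, 0.00027 and 4.6e-05). Chrd, which encodes the BMP antagonist chordin, read 51.1, 67.3 and 83.7 in vehicle, 94.4, 113 and 155 in NRAS-off and 67.4, 80.0 and 94.2 in MEKi tumours. It rose with NRAS off by 0.66 ± 0.11 and over MEKi by 0.45 ± 0.11 (limma adjusted p = 2.4e-05 and 0.0015), without overlap in either, and its MEKi change was 0.21 ± 0.11 (limma adjusted p = 0.122). Fstl3, another activin binder, rose with MEKi by 0.37 ± 0.11 (limma adjusted p = 0.0086) and changed by 0.22 ± 0.11 with NRAS off (limma adjusted p = 0.0904, passing at 0.29 without NRAS-off replicate 6).

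The latent TGF-beta binding proteins hold secreted TGF-beta in the matrix. None of the 3 rose in any comparison, when 31.8%, 24.3% and 24.3% of all genes did. Ltbp2 read 1567, 2045 and 2187 in vehicle, 973, 1208 and 1641 in NRAS-off and 1198, 1613 and 1849 in MEKi tumours, with overlap throughout. It fell by 0.67 ± 0.13 with NRAS off (limma adjusted p = 0.00022). Its fall with MEKi, -0.35 ± 0.13 (limma adjusted p = 0.0361), was lost without any 1 of 7 tumours, vehicle replicates 1, 3, 4 and 5 and MEKi replicates 2, 3 and 5 (-0.36 to -0.28). The difference between treatments, -0.32 ± 0.13 (limma adjusted p = 0.0553), passed without any 1 of 5 tumours, MEKi replicates 2 and 3, NRAS-off replicates 2 and 3 and vehicle replicate 6 (-0.40 to -0.32). Ltbp3 fell by 0.34 ± 0.09 with NRAS off (limma adjusted p = 0.0037), which held for all 4 of its probe sets, and was lower with NRAS off than with MEKi (-0.32 ± 0.09, limma adjusted p = 0.0079), where another probe set of Ltbp3 rose by 0.25. The MEKi change of Ltbp3 was -0.02 ± 0.09 (limma adjusted p = 0.882). It passed as a fall, to -0.59, with the mean of its probe sets or the most variable one. Ltbp1 passed between the treatments alone (-0.53 ± 0.15, limma adjusted p = 0.0057), not when the mean of its probe sets was taken (-0.32), and its NRAS-off change of -0.30 passed without NRAS-off replicate 1 or 2 (-0.37 in both cases).

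Of 6 type I receptors, 3 rose and 1 fell with NRAS off, 1 rose and none fell with MEKi, and 2 rose and 1 fell between the treatments. Of 5 type II and III receptors, 3 rose and 1 fell, 4 rose and none fell, and 3 rose and 1 fell in the same order. Over all genes 31.8% rose and 27.5% fell, 24.3% rose and 20.9% fell, and 24.3% rose and 22.7% fell. Tgfbr2, the type II receptor that binds TGF-beta, read 3442, 3666 and 4639 in vehicle, 7311, 8337 and 8993 in NRAS-off and 5005, 5689 and 6146 in MEKi tumours. The 3 groups stood apart without overlap. Tgfbr2 rose by 1.10 ± 0.08 and 0.54 ± 0.08, and was 0.56 ± 0.08 higher with NRAS off (limma adjusted p = 8.1e-10, 1.8e-05 and 8.2e-06), while its other tested probe set changed by 0.09, -0.04 and 0.13 and was not called. Tgfbr3, betaglycan, a coreceptor that presents TGF-beta2, read 1083, 1442 and 1881 in vehicle, 3269, 4044 and 5529 in NRAS-off and 1761, 1995 and 2331 in MEKi tumours. The NRAS-off tumours were above all others, and MEKi overlapped vehicle. Its rises were 1.53 ± 0.13 and 0.46 ± 0.13, and 1.06 ± 0.13 over MEKi (limma adjusted p = 1.2e-08, 0.0078 and 2.2e-06). Over the 30 alternatives, which include other choices of probe set, these rises went down to 0.82, 0.24 and 0.58 and kept their calls.

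Tgfbr1 and Acvrl1, type I receptors for TGF-beta and, in endothelial cells, for BMP9 and BMP10, rose with NRAS off and did not pass with MEKi. Tgfbr1 read 1543, 1711 and 1781 in vehicle, 2273, 2751 and 2934 in NRAS-off and 1507, 1688 and 1855 in MEKi tumours, with NRAS-off above all others. It rose by 0.65 ± 0.07 (limma adjusted p = 1.9e-07), changed by 0.01 ± 0.07 with MEKi (limma adjusted p = 0.895), and the treatments differed by 0.64 ± 0.07 (limma adjusted p = 4.4e-07). Over the 30 alternatives, which include other choices of probe set, the rise of Tgfbr1 ranged from 0.19 to 0.70. The difference between treatments ranged from 0.23 to 0.68, and both kept their calls. Acvrl1 read 68.6, 75.2 and 91.6 in vehicle, 123, 136 and 172 in NRAS-off and 75.3, 80.5 and 91.9 in MEKi tumours, a like order. It rose by 0.77 ± 0.08 (limma adjusted p = 1.4e-07), changed by 0.08 ± 0.08 with MEKi (limma adjusted p = 0.485) and differed by 0.69 ± 0.08 (limma adjusted p = 8.9e-07). Another probe set of Acvrl1 rose with MEKi, by 0.34 where the most variable probe set stood for the gene.

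Acvr1, the BMP type I receptor ALK2, moved in opposite directions in the treatments. It read 2120.3, 2297 and 2449 in vehicle, 1550.0, 1602 and 1744 in NRAS-off and 2469, 2609 and 2935 in MEKi tumours, with no overlap between any groups. Acvr1 fell by 0.49 ± 0.05 with NRAS off and rose by 0.20 ± 0.05 with MEKi (limma adjusted p = 1.2e-07 and 0.0037), a difference of -0.69 ± 0.05 (limma adjusted p = 3.4e-09). The rise with MEKi did not pass when the mean of its probe sets was taken (0.03). Acvr2b, an activin type II receptor, rose with MEKi by 0.33 ± 0.08 and was lower with NRAS off than with MEKi (-0.44 ± 0.08; limma adjusted p = 0.0019 and 0.00012), and its rise did not pass over the mean of its probe sets (0.12).

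Of the other receptors, the MEKi changes of Acvr2a, Bmpr2 and Acvr1b depended on the probe set or on single tumours. Acvr2a, the other activin type II receptor, rose by 0.56 ± 0.07 with NRAS off (limma adjusted p = 1.2e-06) and 0.18 ± 0.07 with MEKi (limma adjusted p = 0.0418), but its second probe set fell by 0.18 and by 0.53, and the MEKi call was lost without any 1 of 7 tumours, vehicle replicates 1, 2, 3, 5 and 6 and MEKi replicates 1 and 4 (0.12 to 0.18). Both probe sets were higher with NRAS off than with MEKi. Bmpr2, the BMP type II receptor, fell by 0.21 ± 0.05 with NRAS off (limma adjusted p = 0.0015; -0.70 to -0.16 over the alternatives, all called). Its MEKi change of -0.11 passed at -0.15 without vehicle replicate 6, and also with the mean of its probe sets. Its difference between treatments, -0.10 ± 0.05 (limma adjusted p = 0.124), passed with the mean of its probe sets, the most variable one and median centring (to -0.39). Acvr1b, the activin type I receptor, rose by 0.25 ± 0.08 with NRAS off (limma adjusted p = 0.011), and its MEKi change of 0.17 passed without vehicle replicate 6 (0.22) or NRAS-off replicate 2 (0.17). Bmpr1a and Bmpr1b, the BMP type I receptors, passed in no comparison, and called probe sets of Bmpr1a lay on both sides of 0, from -0.38 to 0.24 with NRAS off.

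Of the 6 receptor SMADs and SMAD4, 1 rose and 2 fell in each treatment against vehicle, when 31.8% of all genes rose and 27.5% fell with NRAS off and 24.3% and 20.9% with MEKi, so these counts lay near the background. Smad1, of the BMP class, read 1217, 1406 and 1494 in vehicle, 1424, 1608 and 1684 in NRAS-off and 1815, 1956 and 2009.8 in MEKi tumours. The MEKi tumours were above all others. Smad1 rose by 0.19 ± 0.06 and 0.49 ± 0.06, with -0.30 ± 0.06 between the treatments (limma adjusted p = 0.0069, 1.2e-06 and 0.00024). Smad3, of the TGF-beta and activin class, read 1781, 2069.9 and 2267 in vehicle, 1184, 1295 and 1419 in NRAS-off and 1558, 1588 and 1833 in MEKi tumours, with NRAS-off below all others. It fell by 0.64 ± 0.07 and by 0.31 ± 0.07, with -0.33 ± 0.07 between treatments (limma adjusted p = 9.0e-08, 0.0006 and 0.00037).

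Smad2, the partner of Smad3, fell by 0.24 ± 0.06 and by 0.28 ± 0.06 (limma adjusted p = 0.0017 and 0.00078), but another probe set rose by 0.23 with NRAS off. Smad4, Smad5 and Smad9 passed in no comparison. Smad4, the shared partner, differed between treatments by -0.11 ± 0.05 (limma adjusted p = 0.0537), which passed in 11 of 30 alternatives, among them other filters, median centring, quantile normalization and array weights, and without MEKi replicate 4, NRAS-off replicate 5 or 6 or vehicle replicate 5 (-0.14 to -0.11). A dimmer probe set of Smad5 fell by 0.70 and by 0.56 against vehicle, while the brightest, which stood for the gene, changed by 0.09 and 0.04. Tgfbi, a matrix gene named for its induction by TGF-beta, read 14044, 16618 and 19228 in vehicle, 8628, 11001 and 13457 in NRAS-off and 9971, 10902 and 11735 in MEKi tumours, all treated below all vehicle tumours. Tgfbi fell by 0.58 ± 0.09 in both (limma adjusted p = 2.3e-05 and 4.4e-05), with 0.00 ± 0.09 between the treatments (limma adjusted p = 0.984).

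Every probe set was also tested on its own. Of the 90 tested probe sets of these genes, 66 were called in NRAS-off against vehicle (23 rose, 43 fell), when 54.7% of all 33777 probe sets were. In MEKi against vehicle 52 were called (18 rose, 34 fell), beside 40.7% of all, and between the treatments 44 (19 rose, 25 fell), beside 40.5%. Of 26 genes with several tested probe sets, 11 had all of them called in 1 direction with NRAS off, Smad7, Id4, Bmp7, Tgfb1 and Tgfb2 among them, and 8 with MEKi. Called probe sets opposed each other for 4 genes with NRAS off (Acvr2a, Bmpr1a, Smad2 and Smad4), 3 with MEKi (Acvr2a, Bmpr1a and Smad4) and 1 between the treatments (Ltbp3). Bmp2, Id1, Id3, Smad6 and Inhba had 1 tested probe set each.

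**Figure D4:**
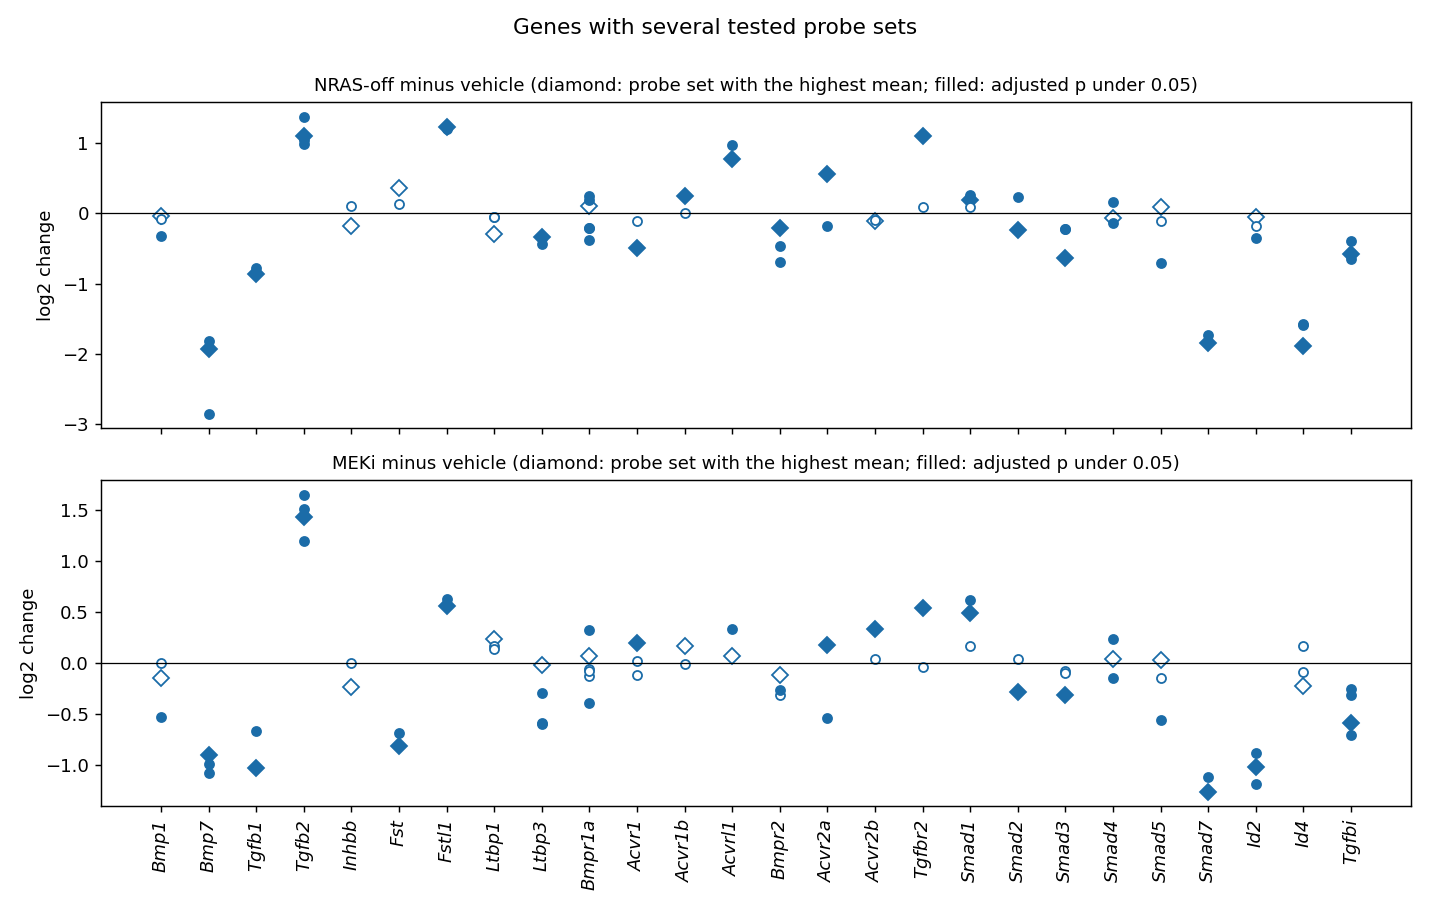
Log2 change (y axis) of each tested probe set for the 26 genes with several (x axis), NRAS-off minus vehicle above and MEKi minus vehicle below. Diamonds mark the probe set that stood for the gene and filled symbols those with a limma adjusted p under 0.05. Those of Bmp7, Tgfb1, Tgfb2 and Smad7 lie on 1 side of 0, and those of Acvr2a, Bmpr1a, Smad4 and Smad5 on both.

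Genes of the pathway were also read from lists, of which those of BMP and TGF-beta targets overlap the present set. Some genes, Bambi and Hes1 among them, are shared between these lists, so the counts of different lists are not separate observations. Over all genes 31.8% rose and 27.5% fell with NRAS off, 24.3% and 20.9% with MEKi, and 24.3% and 22.7% between the treatments. These shares apply to every list below. Of 15 tested BMP target genes, 11 fell and 2 rose with NRAS off (median log2 change -0.87). With MEKi 9 fell and none rose (median -0.43), and 6 fell and 4 rose between the treatments. In this list, 9 of the 18 genes are in the present set: Id1 to Id4, Smad6, Smad7, Smad9, Grem1 and the untested Nog. The counts and medians thus repeat values given above. Among the falls with NRAS off were Id1, Id3, Id4, Smad6, Smad7 and Grem1, and with MEKi Id1, Id2, Smad6, Smad7 and Grem1. Hes1, a Notch and BMP target, fell by 1.40 ± 0.08 and by 0.87 ± 0.08. Hey1, of the same family, fell by 0.84 ± 0.10 and by 1.21 ± 0.10, further with MEKi (NRAS-off minus MEKi 0.37 ± 0.10, limma adjusted p = 0.0049). Msx1, a homeobox target of BMPs, rose by 1.09 ± 0.16 with NRAS off, from a mean of 185 ± 27.5 to 415 ± 80.5 (SD, n = 6), and fell by 0.42 ± 0.16 with MEKi, to 138 ± 44.4.

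Of 27 tested TGF-beta target genes, 9 rose and 12 fell with NRAS off, and 8 rose and 13 fell with MEKi. Between the treatments 6 rose and 5 fell, so the list moved both ways. All genes gave 31.8% and 27.5%, 24.3% and 20.9%, and 24.3% and 22.7% in this order. Counted again here were 3 genes of the present set, Smad7, Tgfbi and Ltbp2, which fell in both treatments. Matrix genes were among those that rose: Postn (periostin) by 2.40 ± 0.10 and 1.53 ± 0.10, and Col1a1 (a collagen I chain) by 1.87 ± 0.14 and 1.40 ± 0.14. Among those that fell were Timp1, a metalloprotease inhibitor, by 2.18 ± 0.13 and by 1.52 ± 0.13, Klf10, a TGF-beta early gene, by 1.43 ± 0.08 and by 1.64 ± 0.08, and Cdkn2b, the CDK inhibitor p15, by 1.48 ± 0.08 and by 1.05 ± 0.08.

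Of 18 SMAD cofactors and turnover genes, 3 rose and 10 fell with NRAS off, 4 rose and 7 fell with MEKi, and none rose and 5 fell between the treatments. For all genes the shares that rose and fell were 31.8% and 27.5%, 24.3% and 20.9%, and 24.3% and 22.7%. Tgif1, a SMAD corepressor, fell by 1.26 ± 0.06 and by 1.02 ± 0.06. Smurf1, a ubiquitin ligase for SMADs, fell by 0.60 ± 0.07 and by 0.45 ± 0.07. Nedd4l, another such ligase, fell by 0.44 ± 0.08 with NRAS off and rose by 0.37 ± 0.08 with MEKi (difference -0.82 ± 0.08, limma adjusted p = 8.1e-08).

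Of 16 other secreted modulators, 10 rose and 2 fell with NRAS off, 6 rose and none fell with MEKi, and 8 rose and none fell between the treatments. Fmod (fibromodulin, a TGF-beta binding proteoglycan) rose by 5.17 ± 0.26 and 2.52 ± 0.26, Dcn (decorin, of the same family) by 2.80 ± 0.12 and 1.06 ± 0.12, and Bmper, a BMP binder of endothelial cells, by 1.28 ± 0.23 with NRAS off (MEKi change -0.09 ± 0.23). Of 12 other ligands, 2 rose and 1 fell with NRAS off, 2 rose with MEKi, and 2 rose and 1 fell between the treatments. Beside both lists, 31.8% of all genes rose and 27.5% fell, 24.3% and 20.9%, and 24.3% and 22.7%. Gdf10, a BMP-like ligand, rose by 2.30 ± 0.26 and 1.56 ± 0.26.

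Of 8 other receptors and coreceptors, 4 rose and 2 fell with NRAS off, 4 rose with MEKi, and 3 rose and 1 fell between the treatments. Neo1 (neogenin, a receptor for the BMP coreceptors of the RGM family) rose by 1.49 ± 0.12 and 1.17 ± 0.12, and Bambi, a pseudoreceptor, fell by 0.82 ± 0.20 with NRAS off. Of 9 genes of the latent complex and its activation, 3 rose and 2 fell, 4 rose and 1 fell, and 3 rose and 3 fell in the same order of comparisons. The shares of all genes were 31.8% and 27.5%, 24.3% and 20.9%, and 24.3% and 22.7%. Nrros, which holds latent TGF-beta on macrophages and microglia, rose by 1.18 ± 0.15 with NRAS off and fell by 0.81 ± 0.15 with MEKi. Itgb8, a subunit of the integrin that activates TGF-beta, rose by 1.03 ± 0.18 with MEKi, and its NRAS-off change was -0.20 ± 0.18.

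Helix-loop-helix genes listed as possible partners of ID proteins were also read, and binding to ID proteins, that of Mitf included, was not measured. The same shares of all genes apply (31.8% and 27.5%, 24.3% and 20.9%, 24.3% and 22.7%). Of 7 tested, 3 rose and 4 fell with NRAS off, 1 rose and 3 fell with MEKi, and 1 rose and 3 fell between the treatments. Tcf4, an E protein, rose by 0.75 ± 0.08 in both treatments, and Tcf12, another, fell by 0.54 ± 0.06 and by 0.31 ± 0.06. Mitf, the melanocyte helix-loop-helix factor, averaged 535 ± 16.2 in vehicle, 1010.5 ± 125 in NRAS-off and 579 ± 38.5 in MEKi tumours (SD, n = 6), and rose by 0.89 ± 0.07 with NRAS off (limma adjusted p = 2.0e-09).

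The tumours were bulk tissue of melanoma and host cells, in which fewer cells of a type and less RNA per cell cannot be told apart. Beside the rises of Fstl1, Tgfb3, Tgfbr2 and Tgfbr3 with NRAS off, 10 of 12 fibroblast markers rose and 2 fell, and their summed intensity ranged from 82657 to 100165 in vehicle, 186788 to 222608 in NRAS-off and 125922 to 132586 in MEKi tumours. With MEKi 7 of the 12 rose and 1 fell, and 10 rose over MEKi with NRAS off. For this and the marker lists below, all genes gave 31.8% and 27.5%, 24.3% and 20.9%, and 24.3% and 22.7%. Some genes are on both a pathway list and a marker list, among them Postn, Col1a1 and Dcn (fibroblasts) and Mitf (melanocytic cells). Of 12 macrophage markers, 11 rose with NRAS off, 10 fell with MEKi and all 12 were higher with NRAS off than with MEKi, with sums of 23581 to 38621, 63172 to 78982 and 11088 to 26357. Beside the rise of Acvrl1, 10 of 12 endothelial markers rose and 1, Flt1, fell with NRAS off, 3 rose and 2 fell with MEKi, and 10 rose and 2 fell between the treatments. Their sum, of which Flt1 made up much in vehicle tumours, ranged over 3328 to 4716, 2904 to 3778 and 1964 to 2482.

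Of the remaining marker lists, 5 of 9 pericyte and smooth muscle markers rose and 1 fell with NRAS off, 4 rose and 2 fell with MEKi, and 2 rose and 1 fell between the treatments. All 10 skeletal muscle markers rose in both treatments, with sums of 2964 to 16004 in vehicle, 30938 to 46768 in NRAS-off and 18174 to 42277 in MEKi tumours, and 3 were higher with NRAS off than with MEKi. Of 6 Schwann cell markers, 5 rose in each treatment, and 2 rose and 1 fell between them. Of 6 tested melanocytic markers, 4 rose with NRAS off, 2 with MEKi, and 3 rose and 1 fell between the treatments. Of the 9 melanocytic markers on the array, 4 had a vehicle mean below the filter, and 3 in each treated group. At least 1 tested marker thus passed the filter only through treated tumours, where it was higher, which favours a count of rises. None of 9 keratinocyte markers passed in any comparison, and their sum was 33233 in NRAS-off replicate 2, the median of its group being 778. No fibroblast, endothelial or skeletal muscle marker had a mean below the filter in any group, and no value in the table was at 0. The part of these cell types in the changes of the ligand, receptor, SMAD and ID genes was not tested.

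Single tumours stood out for several of the genes. Vehicle replicate 6 was the lowest of its group for 19 of the 45 genes, among them Id1, Id3, Id4, Smad6, Smad7, Bmp2, Bmp7, Inhba, Tgfb1 and Grem1. MEKi replicate 4 was the lowest of its group for 15 genes, MEKi replicate 1 the highest for 17 and NRAS-off replicate 2 the highest for 16. Without vehicle replicate 6, 18 genes fell in MEKi against vehicle tumours instead of 15.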

How the data were processed

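The deposited table held probe set intensity values of 45037 probe sets on 18 arrays, which the authors had summarised and scaled. Per the submitters' processing notes, MAS5 and RMA were used, with no version or role given. Values were read as linear since none was negative and the medians of the arrays ranged from 72.3 to 78.5. On another scale fold changes would differ. Arrays of a group correlated at 0.987 to 0.997 (log2), no batch is given in the labels, and the number of arrays limits precision.

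Symbols came from the platform annotation (34945 probe sets with 1 symbol, 932 with several, 9160 without entry), and the probe set with the highest mean stood for a gene. Genes with a mean log2(intensity + 16) above the 25th percentile of probe sets (intensity 23.5) were tested, 15005 of 18193. All 18 arrays were fitted with limma 3.58.1 (R 4.3.3, 15 residual degrees of freedom), with Benjamini-Hochberg adjustment over all genes and a threshold of 0.05, after being tested on simulated data. Figures used matplotlib 3.10.9.

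The genes, and the pathway and marker lists, were chosen with earlier results of these data known. Any member could be named, with up to 4 called genes outside the set of each pathway list and 3 of each marker list with the largest change in a comparison. Nras, Dusp6, Sox10 and the dim pigment genes were named as a label check. Same-numbered tumours of different groups correlated at -0.121 to 0.339 in their deviations (6 of 18 pairs over 0.1). Differently numbered tumours were not compared, so this check cannot tell whether the numbers pair them. The reported fit did not pair them. Alternatives varied the filter, probe set, normalization, pseudocount, variance model, array weights, samples in the fit and replicate block, and left out each tumour. RefSeq promoter windows were matched by symbol (33 of 46 genes).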

Additional observations from a re-analysis of the deposited data

Results flagged for a closer look

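In 12 of 135 gene-by-group sets of 6 tumours, 1 tumour lay far from the others by Dixon's criterion, when chance gives about 5% of sets. In vehicle tumours, Smad6 was lowest in replicate 6 at 195 (the others 481 to 603), Inha was highest in replicate 4 at 95.6 (67.6 to 77.1) and Acvr2a was highest in replicate 4 at 742 (621 to 644). In NRAS-off tumours, Tgfb2 was lowest in replicate 4 at 1250 (next 1460), Acvr1b highest in replicate 2 at 1060 (next 860) and Smad9 highest in replicate 3 at 33.2 (next 26.2).

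In MEKi tumours, Bmp2 was lowest in replicate 4 at 216 (next 320) and Smad4 lowest in replicate 4 at 4130 (next 4500). Acvr2a and Smad3 were highest in replicate 1, at 903 (next 751) and 1830 (next 1630). Bmpr1b was lowest in replicate 2 at 25.3 (next 36) and Smad2 highest in replicate 6 at 558 (next 509). NRAS-off replicate 2 also had the keratinocyte marker sum of 33233, and whether that tissue bears on its Acvr1b value was not tested.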

How the results depend on the processing

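The counts of genes that rose and fell stayed within 1.5 times of their reported values under all 30 alternatives. Leaving out each tumour gave 12 to 14 that rose and 18 to 19 that fell in NRAS-off against vehicle, 9 to 11 and 14 to 18 in MEKi against vehicle, and 10 to 11 and 13 to 15 between the treatments. With a replicate block, a choice the pairing check could not decide, 13 rose and 18 fell, 10 rose and 14 fell, and 11 rose and 14 fell. Of 80 called changes, 70 kept direction and call under every alternative, and over all 3855 comparisons of a change with an alternative 44 lost the call, 53 gained one and 12 changed sign with a call before or after. Another 39 changed sign with no call in either, such as Id2 with NRAS off.

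The 12 sign changes with a call came from the choice of probe set. With the mean of all probe sets they were Smad5 at -0.24 with NRAS off and -0.22 with MEKi, Acvr2a at -0.18 with MEKi and Ltbp3 at 0.0074 between the treatments. With the most variable probe set they were, with NRAS off, Bmpr1a at -0.38, Smad2 at 0.23, Smad4 at 0.15 and Smad5 at -0.70. With MEKi they were Bmpr1a at -0.39, Smad2 at 0.041 and Smad5 at -0.56, and between the treatments Ltbp3 at 0.24. The cause was not tested. Dim genes such as Bmp4 and Smad9 lie near the lower end of the signal, where changes are understated by the pseudocount of 16.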
